A study of Rattus norvegicus with 49 samples.

Results

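The livers of male rats given furan at 0.12 mg/kg were compared with those of male rats given corn oil alone, 5 arrays against 5, out of 49 arrays in the whole series. The members were chosen by animal code, MB for furan at 0.12 mg/kg and MC for 0 mg/kg, and both codes matched the sex and dose on the labels. All animals were F344 rats, an inbred strain, 7 to 8 weeks old at the start, and were gavaged on 5 days a week for 90 days with furan in corn oil or with the oil only. Each array measured Cy5-labelled liver RNA of 1 animal against Cy3-labelled universal rat reference RNA, so that each value was the log2 ratio of liver to reference. The question was which transcripts responded at a dose well below the highest in the study, 2 mg/kg. Females of the same doses (5 at 0.12 mg/kg, 5 controls) and males at 0.03 (4 arrays used), 0.5 and 2 mg/kg were used beside them.

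Furan is a volatile compound formed when food is heated. It is oxidised in hepatocytes, mainly by Cyp2e1, to a reactive dialdehyde that binds glutathione and protein. Liver transcripts also follow hormones and the time of feeding. Glucocorticoids, released by the adrenal gland in a daily rhythm, act through the glucocorticoid receptor on genes such as Fkbp5, Zbtb16 and the metallothioneins. Fasting raises genes of fatty acid oxidation through the receptor Ppara. Metals and oxidants act on the metallothioneins and on targets of the factor Nfe2l2 (NRF2).

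The 10 arrays lay on 6 of 8 slides, and 4 slides held both groups. On the 10 arrays, 41.6% to 69.6% of spots had liver signal well above background. The lowest share was that of treated male 52, whose slide held no control male. Of the 10 hepatocyte markers measured, 10 were above background on all 10 arrays. Summed log2 ratios of hepatocyte markers ranged from 47.6 to 67.0 in treated males and from 48.1 to 66.9 in controls.

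A set of transcripts moved at this dose, among them rises of the zinc finger genes Zfp354a and Zbtb16, of metallothionein Mt1, of the phosphatidate phosphatase Lpin1 and of the alkaline ceramidase Acer2, and falls of the kinase Sgk1, of Gadd45g, of the phosphate carrier Slc34a2 and of Tsc22d1. Of 17661 probes tested, limma called 54, at an adjusted p of at most 0.05 and a fold of at least 1.5, which is 0.306% of those tested. The calls held 35 rises (0.198%) and 19 falls (0.108%). They named 41 genes, 27 up and 14 down, and 10 called probes had no gene name. At an unadjusted p under 0.05, 592 probes were higher (3.35%) and 562 lower (3.18%), and the median log2 change over all probes was -0.0044. The slide entered this test as a block: with no slide term the same 48 arrays gave 8 calls, and the 10 arrays alone gave 0, with 384 at an unadjusted p under 0.05. All 54 kept their sign in those fits, but they were chosen on these same arrays. By group means with no slide term, 12961 of all 17661 probes kept their sign.

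Array signal differed between slides, and the slide entered the fit as a block. The slide of male 52 held arrays with 37.9% to 44.3% of spots well above background in the liver channel. Among the 35 probes that rose, male 52 had the lowest value of the 5 treated males in 34, and without that array 78 probes were called. Of the 5 controls, control 6 had the lowest value in 21 of the 35 and control 4 the highest in 19. Among the 19 probes that fell, control 6 was the lowest control in 11 and male 52 the lowest treated male in 2. These are values with no slide term, and the same counts over all probes were not taken. Control 6 had the lowest share of spots above background among the controls, 45.5%, and without it 62 probes were called. The other arrays of its slide had 46.9% to 56.1%, apart from the 1 left out of the fit. The treated and control values did not overlap in 81 of 17629 probes with a value on all 10 arrays (0.459%), and in 17 of the 54 called. Leaving out treated male 44 or control 5 left 23 calls each, and leaving out control 2 left 31. What signal strength contributed to these counts was not tested. In bulk liver, fewer cells of a type and less RNA per cell cannot be told apart.

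**Figure D1:**
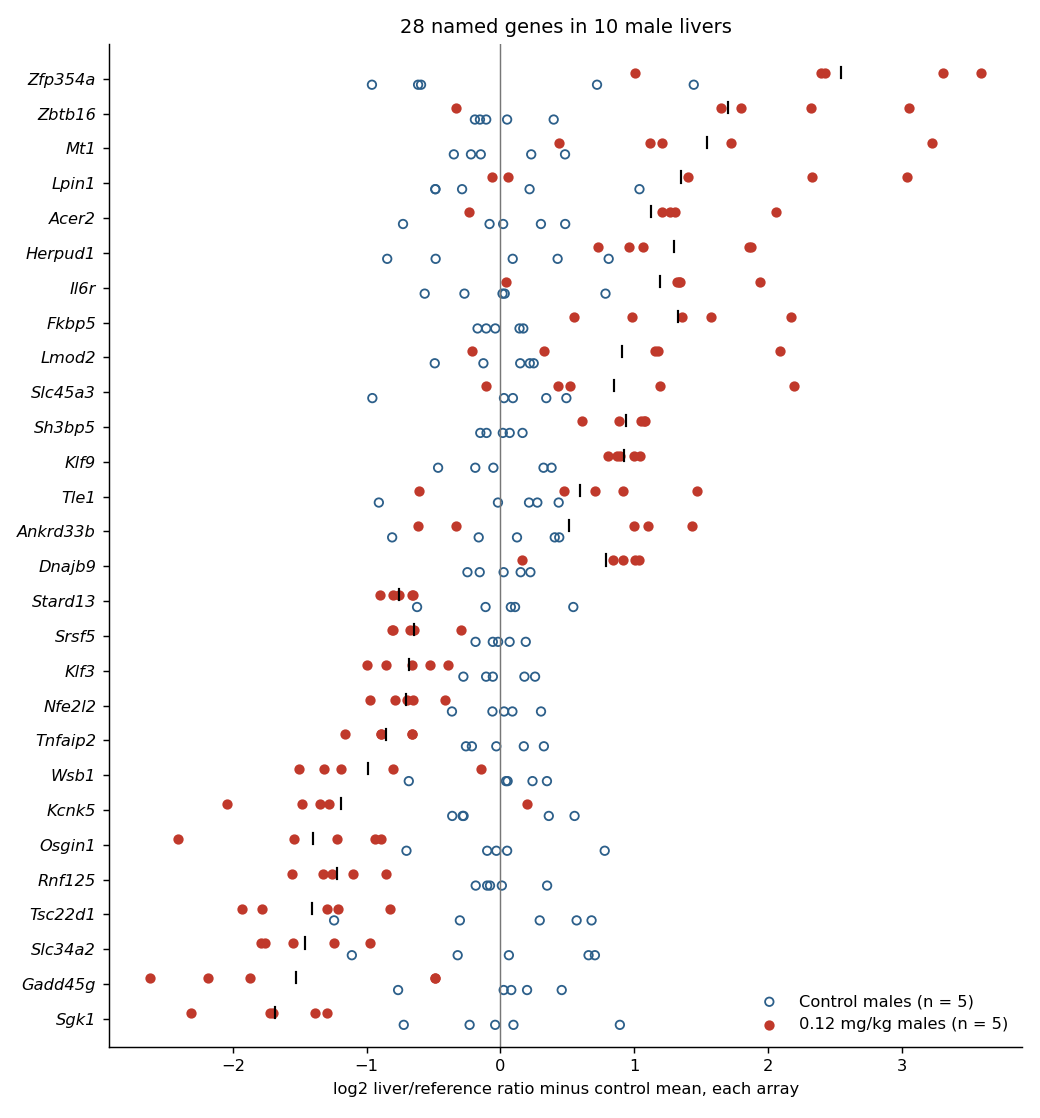
Each row is 1 of 28 named genes, and each point is 1 array: the log2 liver/reference ratio minus the control mean of that gene, for 5 treated males (filled, mean as a bar) and 5 controls (open). Sgk1, Rnf125, Fkbp5, Sh3bp5 and Klf9 are among the genes whose groups do not overlap, while 1 treated male, male 52, lies below all controls for Zbtb16 and within the control range for Acer2 and Il6r.

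Per-animal log2 ratios below are given for treated males 42, 44, 48, 52 and 41 and for controls 4, 2, 3, 5 and 6, in that order, and a log2 change is the fitted difference between the groups after the slide term, with its SE. Zfp354a, a KRAB zinc finger gene first known from kidney injury and development, read 4.27, 5.46, 5.18, 2.87 and 4.30 in treated males. It read 3.31, 1.27, 2.59, 1.25 and 0.91 in controls. The groups met only at treated male 52 and control 4, and the log2 change was 2.89 ± 0.45 (SE), a fold of 7.40, with an adjusted p of 0.00046 by limma. It was the largest rise among the probes tested.

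Of the 20 lists examined, that of the glucocorticoid response held the most calls. The lists were chosen with earlier results of these data known, so this rank is no independent evidence. Over all 9852 named genes by their brightest probe, 26 were called as rises and 14 as falls. Of its 18 measured members, Zbtb16, Mt1, Lpin1, Il6r, Fkbp5 and Klf9 rose (6) and Sgk1 fell (1), 9 were higher and 2 lower at an unadjusted p under 0.05, and the list's median log2 change was 0.27. Fkbp5, an immunophilin that binds the receptor complex and dampens its signal, read 0.37, 1.56, 0.74, -0.07 and 0.96 in treated males and -0.45, -0.47, -0.72, -0.79 and -0.66 in controls. All 5 treated males lay above all 5 controls (log2 change 1.29 ± 0.27, limma adjusted p = 0.019).

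Zbtb16, a transcriptional repressor (PLZF), read 2.57, 2.05, 3.31, -0.08 and 1.90 in treated males and 0.30, 0.15, 0.65, 0.10 and 0.06 in controls. Its probe was well above background on 4 of 5 treated arrays and on 1 of 5 control arrays. Treated male 52 read below all controls, but no control male shared its slide, and these values hold no slide term. The log2 change was 2.14 ± 0.33 (limma adjusted p = 0.00046). With controls near background its size is uncertain, and it was 1.24 by the liver channel alone and 4.48 by the scanner software's ratios.

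Klf9, a Krüppel-like factor that responds to glucocorticoids and thyroid hormone, read between 1.51 and 1.76 in treated males and between 0.24 and 1.09 in controls. The groups did not overlap, and the log2 change was 0.96 ± 0.16 (limma adjusted p = 0.00096). Il6r, the interleukin 6 receptor, rose by 1.30 ± 0.23 on the log2 scale (limma adjusted p = 0.0024), with male 52 at 2.56 inside the control range of 1.95 to 3.30 and the other treated males between 3.83 and 4.45. Lpin1, which makes diacylglycerol and also acts with Ppara in the nucleus, rose by 1.61 ± 0.36 (limma adjusted p = 0.026). Its treated males were uneven, from 0.51 to 3.61, and 2 of them lay inside the control range of 0.09 to 1.61. Its call held in 5 of the 10 fits that left out 1 array, and that of Fkbp5 in 7.

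The list did not move in 1 direction. Sgk1, a serum- and glucocorticoid-inducible kinase that raises sodium uptake, fell in every treated male. It read -0.37, -0.04, 0.05, -0.36 and -0.97 in treated males against 1.12, 1.44, 1.31, 2.24 and 0.62 in controls, with no overlap. The log2 change was -1.61 ± 0.23, a fold of 3.06, with a limma adjusted p of 0.00040, and it was the largest fall of all probes tested. Tsc22d3 (GILZ), another receptor target, had a log2 change of 0.63 ± 0.30 and an adjusted p of 0.73 by limma, and did not pass.

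The metallothioneins, small cysteine-rich proteins that bind zinc, cadmium and copper, are known to respond to glucocorticoids as well as to metals. Mt1 read 2.65, 2.04, 4.15, 1.36 and 2.13 in treated males and 0.77, 1.15, 0.70, 1.40 and 0.57 in controls. Only male 52 lay inside the control range, at 1.36 below control 5, and the log2 change was 1.82 ± 0.44 (limma adjusted p = 0.042). Leaving out any 1 of the 10 arrays took Mt1 out of the calls, with log2 changes of up to 2.01. Mt2A had a larger but noisier change, 2.21 ± 0.62 by its brighter probe, and did not pass (limma adjusted p = 0.10), nor did its other probe, at 1.81 (limma adjusted p = 0.084). It read 1.21, 0.90, 2.94, 0.00 and 0.44 in treated males and -1.15, -0.21, -1.07, -0.39 and -1.49 in controls, with no overlap. Of the 7 measured genes of the metallothionein and zinc list, Mt1 alone was called, the zinc exporter Slc30a1 had a log2 change of -0.04 ± 0.10, and the list's median was 0.08.

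The start regions of Mt1, Mt2A and Lpin1 are shown because Mt1 and Lpin1 rose, Mt2A is the close relative of Mt1 that did not pass, and all hold motifs that bear on the lists above. The sequences are RefSeq's for assembly GRCr8, from 250 bases before the first listed start to 50 after it, read 5′ to 3′ along the gene's strand. In the metallothionein pair, capitals mark the core of the metal response element, TGCGCNC or TGCACNC on either strand. In Lpin1 they mark the glucocorticoid receptor hexamer, AGAACA or its reverse complement TGTTCT.
Mt1 (chr19:10832926-10833225, minus strand): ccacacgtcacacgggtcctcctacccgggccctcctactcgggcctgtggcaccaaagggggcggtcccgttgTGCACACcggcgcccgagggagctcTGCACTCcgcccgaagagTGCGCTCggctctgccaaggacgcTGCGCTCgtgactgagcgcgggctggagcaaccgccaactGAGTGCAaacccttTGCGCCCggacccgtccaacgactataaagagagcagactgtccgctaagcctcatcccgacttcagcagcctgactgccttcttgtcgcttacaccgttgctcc
Mt2A (chr19:10838659-10838958, minus strand): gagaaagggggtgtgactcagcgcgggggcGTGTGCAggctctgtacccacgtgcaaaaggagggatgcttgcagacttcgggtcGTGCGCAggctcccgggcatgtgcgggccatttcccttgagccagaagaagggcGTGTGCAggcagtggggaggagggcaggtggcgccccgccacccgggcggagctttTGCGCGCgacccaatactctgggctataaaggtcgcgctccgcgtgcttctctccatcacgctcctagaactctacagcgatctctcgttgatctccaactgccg
Lpin1 (chr6:45108893-45109192, minus strand): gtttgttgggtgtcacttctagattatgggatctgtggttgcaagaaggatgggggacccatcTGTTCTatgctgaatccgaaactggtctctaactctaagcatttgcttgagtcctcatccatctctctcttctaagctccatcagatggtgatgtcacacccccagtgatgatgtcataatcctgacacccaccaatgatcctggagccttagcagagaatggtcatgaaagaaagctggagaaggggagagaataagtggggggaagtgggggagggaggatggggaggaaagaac
Mt1 held 6 matches to the metal core and Mt2A held 4, and no marked match overlapped another. The Lpin1 match began 187 bases before the start.

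Of the 29 named genes, 27 had such a promoter. The metal core was present in 14 of the 27, against 24.2% of 33469 promoters of the same length, and the glucocorticoid hexamer in 3, against 20.7%. Those 3 were Lpin1, which rose, and Rnf125 and Srsf5, which fell and are not on the glucocorticoid list. The E-box CACGTG, the core of the clock proteins' element, was present in 6 (6.42% of all), and TGACG, the core of the cAMP response element, in 10 (21.2%), with bases of these 2 motifs shared in Il6r. The ER stress response element was present in 0 of the 27 and in 0.0657% of all promoters. These are letter matches in a short window and not sites.

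Among genes of fasting and fat use, Ppara, the receptor that switches on fatty acid oxidation, rose by 0.88 ± 0.18 on the log2 scale (limma adjusted p = 0.011). It read 1.41, 1.80, 2.32, 0.72 and 2.03 in treated males against 1.31, 0.91, 2.01, 1.23 and 0.30 in controls. The raw values overlapped widely, and the differences on the 4 shared slides ran from 0.10 to 1.73. It was called alone among the 18 measured members of its list, whose median was 0.03. Cpt1a, which carries fatty acids into mitochondria, had a log2 change of 0.76 ± 0.27 and did not pass (limma adjusted p = 0.34), and Cpt2 had 0.24 ± 0.13.

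In the fasting and gluconeogenesis list, Lpin1 alone was called among 13 members, and the median was -0.08. Pck1, the rate-limiting enzyme of gluconeogenesis, had a log2 change of -0.08 ± 0.24, and G6pc1, glucose-6-phosphatase, -0.27 ± 0.16. Igfbp1, an insulin-repressed binding protein, had -0.93 ± 0.29 with no overlap between groups, but an adjusted p of 0.19 by limma. Foxo3, a factor that acts in fasting, had 0.55 ± 0.13, with an adjusted p of 0.039 by limma but a fold below 1.5. Of 13 lipogenesis and insulin response genes, 0 were called and 11 were lower, with a median of -0.17; Fasn, fatty acid synthase, had -0.57 ± 0.33 and Gpam, which starts triglyceride synthesis, -0.43 ± 0.15.

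Among genes of endoplasmic reticulum (ER) stress, Herpud1 and Dnajb9 were called. Herpud1, which helps clear misfolded proteins, read 2.68, 3.47, 2.58, 2.35 and 3.49 in treated males and 2.43, 0.77, 1.71, 1.13 and 2.04 in controls. Only control 4 exceeded a treated male, and the log2 change was 1.35 ± 0.30 (limma adjusted p = 0.025). Dnajb9, a co-chaperone of Hspa5, rose by 0.88 ± 0.20 (limma adjusted p = 0.031), with male 52 at 1.66 and the other treated males between 2.34 and 2.53, against 1.25 to 1.72 in controls. Its call held in 2 of the 10 fits that left out 1 array, and that of Herpud1 in 6. The main chaperone Hspa5 itself had a log2 change of -0.07 ± 0.14, Hsp90b1 0.14 ± 0.15 and Xbp1, the factor that drives Dnajb9, 0.50 ± 0.19. Of 16 measured genes of the ER stress and amino acid list, 2 rose and 0 fell, and the median was 0.05.

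Of the falls, Gadd45g, a stress and growth arrest gene, read 0.91, -0.79, -1.22, -0.48 and 0.91 in treated males and 1.42, 1.85, 1.59, 0.63 and 1.48 in controls. Treated males 42 and 41 lay inside the control range, and the log2 change was -1.46 ± 0.35 (limma adjusted p = 0.038), a call kept in 3 of the 10 fits that left out 1 array. Of the 15 immediate early genes and salt-inducible kinases measured, Gadd45g alone was called and 13 were lower, with a median of -0.27. Sik1, a kinase induced by cAMP, had -0.56 ± 0.15 (limma adjusted p = 0.077), Dusp1, a MAP kinase phosphatase, -0.71 ± 0.27, Fos -0.52 ± 0.18 and Egr1 -0.09 ± 0.13, and none of these passed.

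Tsc22d1, a leucine zipper factor induced by TGF-beta, fell by both of its probes, with log2 changes of -1.31 ± 0.24 and -1.07 ± 0.27. By the first probe 3 of 5 treated males lay below all controls. The ubiquitin ligase gene Rnf125 read 2.91, 2.68, 3.14, 2.98 and 3.38 in treated males and 4.16, 4.05, 4.25, 4.59 and 4.14 in controls. The groups were well apart, with a log2 change of -1.15 ± 0.18 (limma adjusted p = 0.00046). Wsb1, a substrate adaptor of a ubiquitin ligase, fell by 0.95 on the log2 scale, Klf3, a transcriptional repressor, by 0.67 and Stard13, a GTPase-activating protein, by 0.63 (limma adjusted p = 0.025, 0.0018 and 0.0067). The 3 calls held in 3, 9 and 8 of the 10 fits without 1 array.

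Slc34a2, a sodium-dependent phosphate carrier, read 1.14, 0.63, 1.41, 0.60 and 0.83 in treated males and 2.07, 3.04, 2.45, 3.09 and 1.27 in controls. It was above background on 4 of 5 treated arrays, and only treated male 48 exceeded the lowest control. The log2 change was -1.34 ± 0.20 (limma adjusted p = 0.00046). In the sodium and phosphate transport list it was the 1 call among 6 members, and Sgk2, a liver and kidney relative of Sgk1, had -1.24 ± 0.35 with no overlap but an adjusted p of 0.11 by limma. Slc20a1 and Slc20a2, phosphate carriers of another family, had log2 changes of 0.20 ± 0.11 and 0.02 ± 0.09. Kcnk5, a pH-sensitive potassium channel, fell by 1.15 (limma adjusted p = 0.018), with treated male 44 at 2.08 inside the control range of 1.52 to 2.43, and its call held in 6 of the 10 fits without 1 array.

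No gene of the antioxidant list was called as a rise. Nfe2l2, the gene of NRF2 itself, read -0.18, -0.36, -0.09, 0.20 and -0.04 in treated males and 0.25, 0.55, 0.64, 0.92 and 0.70 in controls. All treated males lay below all controls (log2 change -0.69 ± 0.16, limma adjusted p = 0.029), and the call held in 4 of the 10 fits without 1 array. Osgin1, a stress-induced growth inhibitor and NRF2 target, also fell with no overlap, by 1.15 (limma adjusted p = 0.045), but was called in only 2 of the 10 fits without 1 array. Of the 18 NRF2 antioxidant genes measured, 0 rose and Osgin1 alone fell, with a median of -0.09. Nqo1 had a log2 change of -0.11 ± 0.15, Gclc, of glutathione synthesis, -0.33 ± 0.19 and Hmox1 0.03 ± 0.14.

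Other named calls were scattered in function. Acer2, which splits ceramide, rose by both of its probes, by 1.46 ± 0.22 and 1.04 ± 0.23, and male 52 lay inside the control range. Sh3bp5, a Rab11 exchange factor, rose by 1.003 ± 0.195 with no overlap (limma adjusted p = 0.0083), and its weaker probe had 0.60 ± 0.18. The actin-filament gene Lmod2, the sugar carrier gene Slc45a3, the corepressor gene Tle1 and Ankrd33b rose by 0.89 to 1.09 on the log2 scale (limma adjusted p from 0.015 to 0.039). Slc45a3 differed by -0.06 on slide 1 and by 2.15 on slide 8. In the 10 fits that left out 1 array the calls of Lmod2, Slc45a3, Tle1 and Ankrd33b held in 7, 4, 2 and 4. The named rises beyond the 15 largest, Ppara and Por among them, lay between 0.60 and 0.88 on the log2 scale. Of these Cdc42ep4, an effector of the GTPase Cdc42, had 0.63 by the called probe and 0.08 by a dimmer one. Tnfaip2, a TNF-induced gene, and Srsf5, a splicing factor, fell by 0.88 and 0.63 with no overlap (limma adjusted p = 0.0018 and 0.00046).

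Within slides the named genes kept their direction almost throughout. The difference of treated minus control male had the sign of the fit on all 4 shared slides for 51 of the 54 called probes and for 2001 of all 17661 tested. The 54 were chosen by a fit that used these same arrays, so this is a description only. For Sgk1 the 4 differences were -1.49, -1.49, -2.19 and -1.59. For Zbtb16 they were 2.27, 1.90, 3.21 and 1.84. For Zfp354a they were 0.95, 4.19, 3.93 and 3.39, so that slide 1 gave a much smaller rise than the others. The fit on these 8 arrays alone called 15 probes, of which 11 were among the 54.

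**Figure D2:**
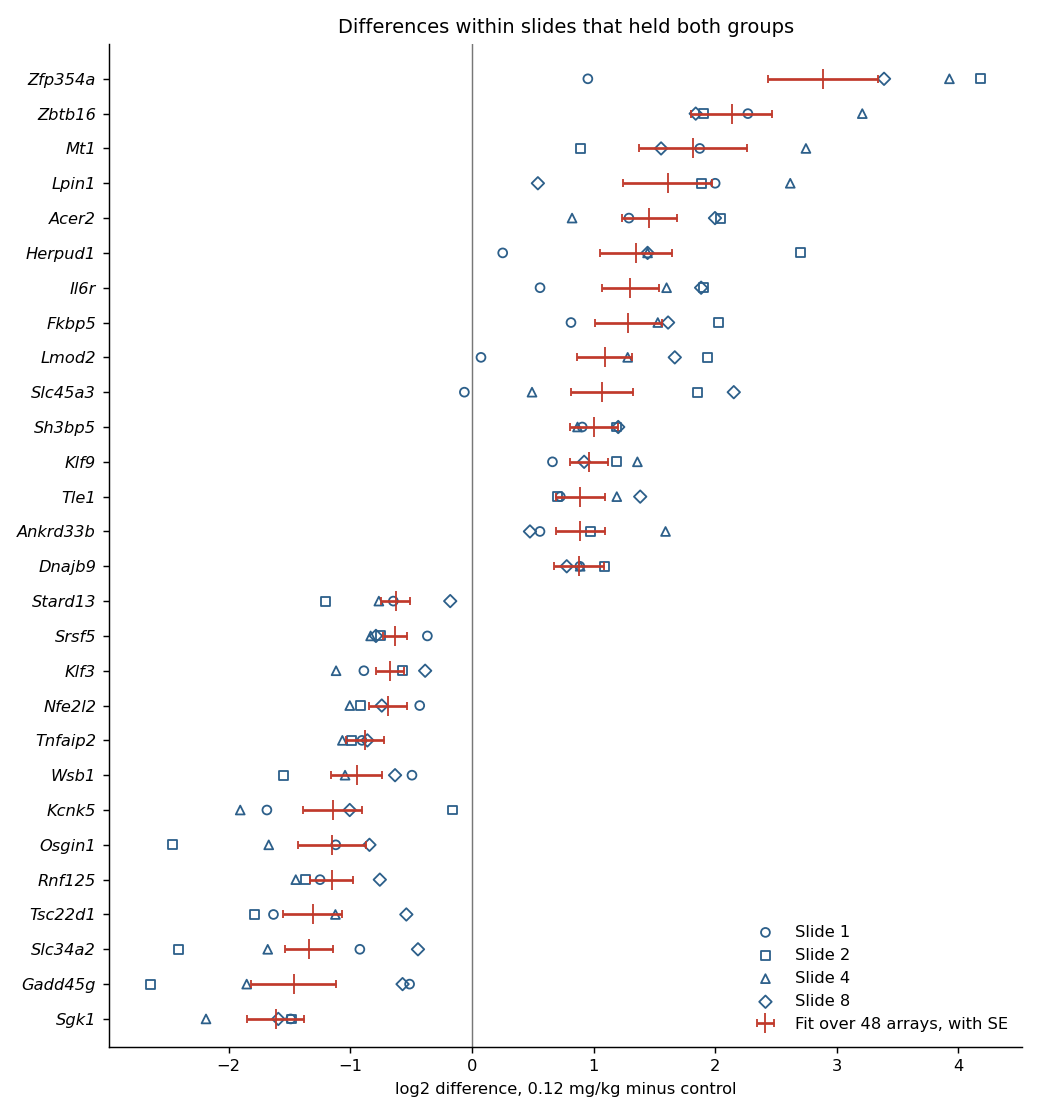
Log2 difference of treated minus control male on each of the 4 slides that held both (open symbols, 1 pair each), with the fitted log2 change and its SE (bar), for 28 named genes. For Sgk1 the 4 slides lie between -2.19 and -1.49, while for Herpud1 they spread from 0.25 to 2.70, and for Slc45a3 1 slide crosses 0.

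Across the wider lists few genes were called. Of 16 xenobiotic P450 and receptor genes, Por alone was called. Por, the reductase that passes electrons to all microsomal P450 enzymes, rose by 0.61 ± 0.13 (limma adjusted p = 0.025), while Cyp2e1, the P450 that activates furan, had -0.13 ± 0.10, Cyp1a2 0.02 ± 0.11 and Cyp2b2 0.04 ± 0.16. In the thyroid hormone list of 10, Klf9 alone was called, Dio1, a deiodinase, had 0.20 ± 0.19, and Me1, malic enzyme, had -0.53 ± 0.25 (limma adjusted p = 0.72).

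No gene was called among 15 p53 targets (median -0.02), 20 cell cycle genes (-0.19), 17 acute phase genes (-0.13), 15 cholesterol genes (-0.03), 13 bile acid genes (0.05), 15 growth hormone and sex-biased genes (-0.04), 5 morning clock genes (-0.17) and 8 evening clock and output genes (-0.04). At an unadjusted p under 0.05 the p53 list held 4 higher and 3 lower genes, and the cell cycle list 0 higher and 5 lower, among them Plk1 (-0.34 ± 0.13) and Rrm2 (-0.59 ± 0.24). Tp53inp1, a p53 target that promotes apoptosis, had 0.61 ± 0.16 and Bbc3 (PUMA) -0.38 ± 0.10, but Cdkn1a, the cell cycle inhibitor, had -0.05 ± 0.14. Per2, a repressor of the clock, had -0.93 ± 0.25 (limma adjusted p = 0.076), Nfil3 -0.31 ± 0.09, Cry1 -0.46 ± 0.19 and Usp2, a clock output, 0.57 ± 0.16, while Bmal1 had -0.10 ± 0.08 and Dbp -0.01 ± 0.19. In the acute phase list Hp, haptoglobin, had -0.11 ± 0.12, and in the bile acid list Cyp7a1, which sets the rate of bile acid synthesis, had 0.06 ± 0.51.

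**Figure D3:**
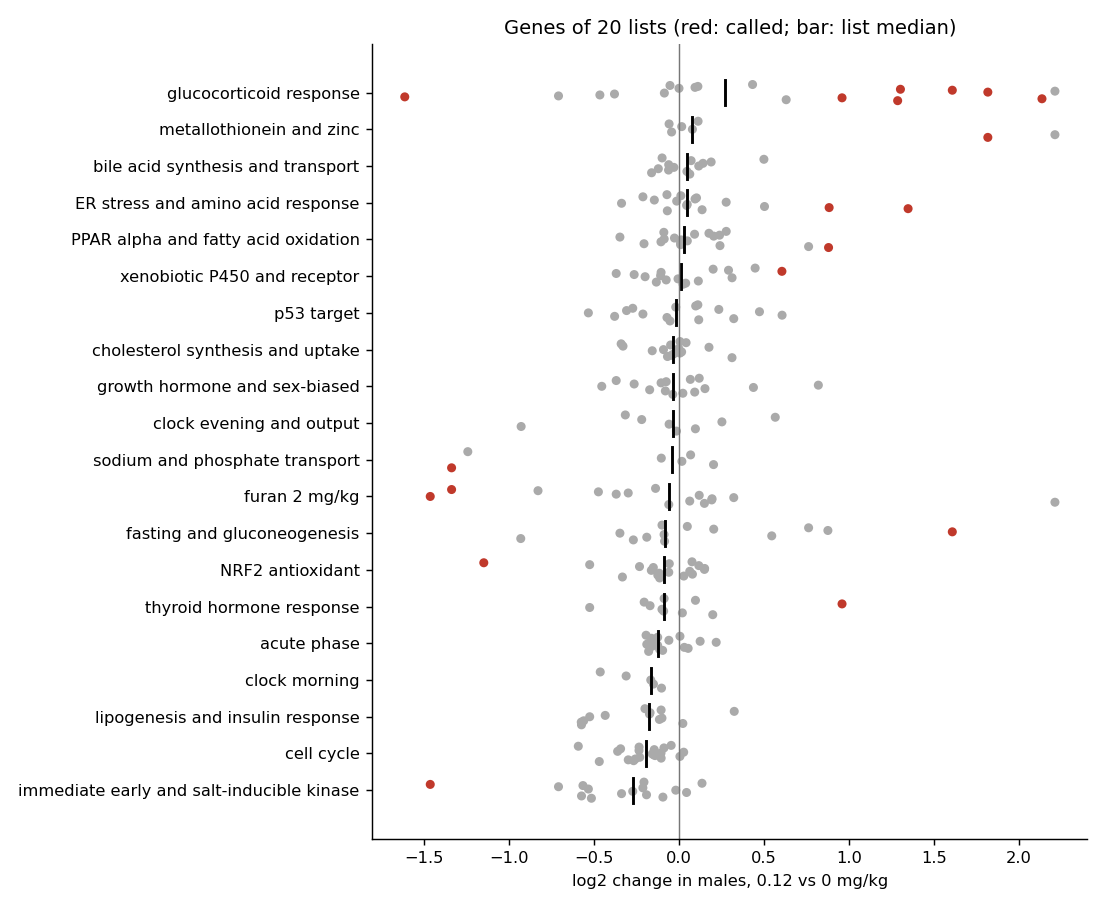
Log2 change in males at 0.12 mg/kg for the measured genes of 20 lists, 1 point a gene by its brightest probe, with called genes in red and the list median as a bar. The glucocorticoid list has its median at 0.27 and calls on both sides of 0, while the medians of the other lists lie between -0.27 and 0.08.

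Markers of other liver cells did not pass the test. Of the tested markers of bile duct (11), stellate cell and fibroblast (11), endothelial cell (5), macrophage (12), neutrophil (3), lymphocyte (5), red cell (4) and exocrine pancreas (4), 0 were called, and hepatocyte markers gave 0 of 10. By the fit the endothelial genes were higher in 5 of 5, the least by 0.002, against 4835 of all 9852 named genes. Lyve1 had 0.71 ± 0.26 and Oit3 0.39 ± 0.18 (limma adjusted p = 0.40 and 0.65). With no slide term the median summed log2 ratio of the endothelial genes was 12.98 in treated males and 13.55 in controls. Summed log2 ratios overlapped between the groups: 10.3 to 15.5 against 10.1 to 15.97 in controls for endothelial genes, 26.4 to 38.4 against 22.0 to 38.5 for macrophage genes, 11.7 to 17.5 against 11.1 to 21.7 for red cell genes and -12.5 to -9.46 against -12.8 to -8.68 for bile duct genes. They ran from -20.6 to -15.3 against -19.6 to -15.1 for stellate cell and fibroblast genes, from 0.96 to 3.05 against 0.41 to 3.54 for neutrophil genes, from -7.00 to -4.98 against -7.11 to -5.59 for lymphocyte genes and from -2.02 to -0.45 against -1.99 to -0.61 for exocrine pancreas genes. The pancreatic enzyme gene Cpa1 was above background on 0 of the 10 arrays.

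Values at the other doses share the 5 control arrays with those at 0.12 mg/kg and are given side by side only. Sgk1 changed by -1.31 ± 0.28 at 0.03 mg/kg, -1.61 ± 0.23 at 0.12, -0.93 ± 0.24 at 0.5 and -1.37 ± 0.24 at 2 mg/kg on the log2 scale. Its level at 0.12 mg/kg was the lowest of the 5 male dose groups, though within 1 SD of those at 0.03 and 2 mg/kg. In order of rising dose Zbtb16 had changes of 0.53 ± 0.41, 2.14 ± 0.33, 1.92 ± 0.34 and 1.84 ± 0.34. Zfp354a had 1.199 ± 0.548, 2.89 ± 0.45, 2.75 ± 0.46 and 1.56 ± 0.46. Its level was highest at 0.12 mg/kg, though within 1 SD of that at 0.5 mg/kg.

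In the same order Mt1 had 1.24 ± 0.54, 1.82 ± 0.44, 1.98 ± 0.45 and 2.28 ± 0.45. Acer2 had 0.27 ± 0.27 at 0.03 mg/kg against 1.46 ± 0.22 at 0.12. Osgin1 had -0.06 ± 0.34 at 0.03 mg/kg and -1.15 ± 0.28 at 0.12. Lpin1 had 0.80 ± 0.44, 1.61 ± 0.36, 1.44 ± 0.37 and 0.76 ± 0.37.

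**Figure D4:**
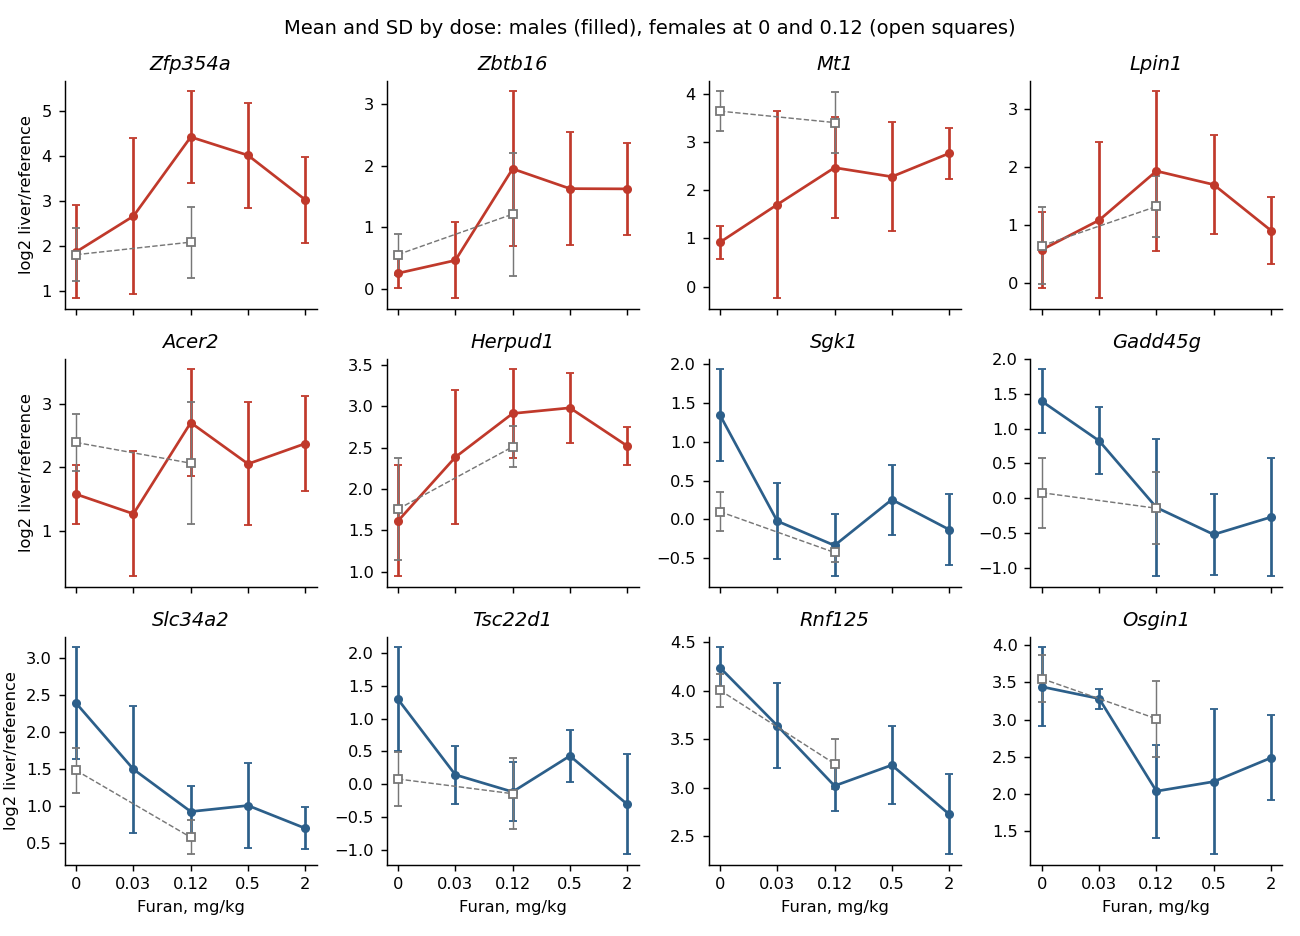
Log2 liver/reference ratio by furan dose (categories, mg/kg) for the 6 named genes with the largest rises and the 6 with the largest falls: mean and SD of the male arrays (filled, 5 a group, 4 at 0.03 mg/kg) and of 5 female arrays at 0 and 0.12 mg/kg (open squares). The means are of the arrays with no slide term. Female Mt1 starts at 3.64 and male Mt1 at 0.92, while Sgk1 starts at 0.10 in females and at 1.35 in males.

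Set directly against 2 mg/kg, the 0.12 mg/kg livers differed in many more probes than from controls. No control mean entered that contrast, but control arrays helped to set the slide terms and the spread of the fit. limma called 666 probes between the doses (3.77%), 341 higher and 325 lower at 2 mg/kg. That split depended on the scaling: with median centring in place of loess 960 were called and 90.5% of them were higher, against 51.2%, with the median of all probes at 0.12, and by the scanner software's ratios 1240 were called and 61.6% were higher. The 5 largest rises from 0.12 to 2 mg/kg were Gsta3 and Gstp1, glutathione transferases, Akr7a3, an aflatoxin aldehyde reductase, Cyp2c12, a steroid hydroxylase of female rat liver, and Gpx2, a glutathione peroxidase. Their log2 differences ran from 2.36 to 3.11.

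These 5 genes had log2 changes from controls of -0.37 to 0.15 at 0.12 mg/kg, and none passed the test. Akr7a3 had a log2 ratio of 1.84 ± 0.53 (SD, n = 5) at 0.12 mg/kg against 1.86 in controls and 4.78 ± 0.59 at 2 mg/kg. Gstp1 had -2.999 ± 0.357 against -2.93 and -0.29 ± 1.24. For Gsta3 the probes disagreed, since its brighter probe changed by 0.08 at 2 mg/kg and the other by 3.20 relative to controls. The 5 largest falls were Sez6, Dhrs7l1, a dehydrogenase, Ppp1r3c, which directs phosphatase to glycogen, Plekhb1 and the methyltransferase gene Inmt. Of these, Ppp1r3c had a log2 change from controls of 1.10 ± 0.30 at 0.12 mg/kg, which did not pass (limma adjusted p = 0.093). It lay 1.74 lower at 2 mg/kg than at 0.12 mg/kg, and the 0.12 mg/kg arrays entered both differences.

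Genes called at 0.12 mg/kg were set against 2 mg/kg as well, with the treated arrays shared. Fkbp5 differed by -0.01 ± 0.27, Sgk1 by 0.24 ± 0.23 and Zbtb16 by -0.30 ± 0.33 between the doses, and none of these passed. Lmod2, Zfp354a and Dnajb9 were lower at 2 mg/kg, with log2 differences of -1.01 ± 0.22, -1.33 ± 0.44 and -0.59 ± 0.20 (limma adjusted p = 0.0013, 0.029 and 0.035). Nfe2l2 was higher at 2 mg/kg by 0.56 ± 0.16 (limma adjusted p = 0.0092). Of a list of 15 genes that an earlier analysis of these arrays chose for their response at 2 mg/kg, which is no independent evidence, 0 rose and 2 fell at 0.12 mg/kg, Gadd45g and Slc34a2, with a median of -0.06 against 1.01 at 2 mg/kg.

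Females at the same dose share no array with the males. In females 2 probes were called against 54 in males, while 1493 (8.45%) had an unadjusted p under 0.05 against 1154 in males. Of the 54 probes called in males, 52 had the same sign in females (34 of 35 up, 18 of 19 down), against 48.7% of all probes, and 30 of them had an unadjusted p under 0.05 in females. The sexes share slide terms in the fit, so the count was also taken without the fit, a choice made after seeing the data. Without a slide term 39 of 54 had the same sign (48.0% of all probes), and within the 3 slides that held both female groups 49 of 54 did (50.4%). Of the 35 rises, 21 had the same sign without the slide term and 30 within slides, and of the 19 falls 18 and 19. The median log2 change of the 35 rises was 0.88 in males and 0.44 in females by the fit, but 0.11 in females without a slide term and 0.34 within slides. That of the 19 falls was -0.95 in males and -0.26 in females by the fit, and -0.28 and -0.27 in females in the same order.

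**Figure D5:**
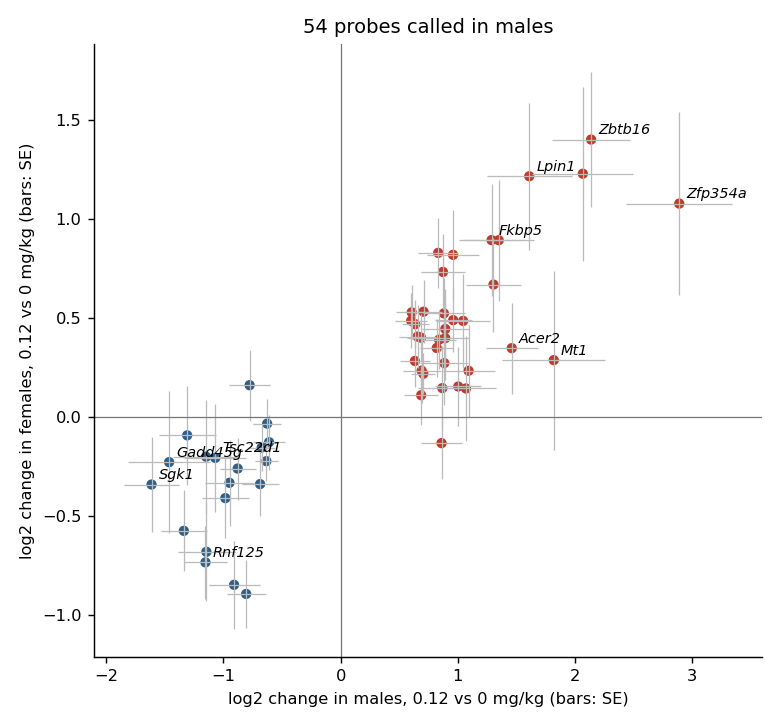
Log2 change at 0.12 mg/kg in males (x axis) and in females (y axis) with the SE of each, for the 54 probes called in males. The signs match for 52 of the 54, with Zbtb16 at 2.14 and 1.40, while Sgk1 lies at -1.61 and -0.34 and Mt1 at 1.82 and 0.29.

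Zbtb16 had a log2 change of 1.40 ± 0.34 in females, Fkbp5 0.89 ± 0.28, Lpin1 1.21 ± 0.37 and Rnf125 -0.73 ± 0.18. Sgk1 had -0.34 ± 0.24, Gadd45g -0.23 ± 0.36, Tsc22d1 -0.09 ± 0.25 and Mt1 0.29 ± 0.45. The control levels of some of these genes, with no slide term, lay apart between the sexes, which was not tested. Sgk1 read 1.35 ± 0.59 (SD, n = 5) in control males and 0.10 ± 0.25 in control females, near the -0.34 ± 0.40 of treated males. Gadd45g read 1.40 ± 0.46 and 0.08 ± 0.50, and Mt1 0.92 ± 0.35 and 3.64 ± 0.41. Others were close, with Lpin1 at 0.57 ± 0.65 and 0.64 ± 0.66 and Rnf125 at 4.24 ± 0.21 and 4.00 ± 0.17. The test of the difference itself, the male minus the female effect, called 0 of 17661 probes (0%) with limma, 1297 had an unadjusted p under 0.05, and all other settings run also gave 0. The smallest adjusted p was 0.22, and for Sgk1, with a male minus female difference of -1.27, it was 0.56.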

How the data were processed

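Liver RNA of male and female rats was hybridised on Agilent 2-colour arrays, per the labels with liver in Cy5 and universal reference in Cy3, with no dye swap. The deposited scanner files (Agilent Feature Extraction 10.7.3.1, per the submitters' processing notes) hold median signal and local background intensity per spot, marks for spots well above background, and a log10 ratio processed by the scanner software. The series table holds log2 ratios computed by the authors, whose normalization is not given in the sources used here; each correlated positively with the liver/reference ratios of its best-matching array. Its columns mostly matched arrays of the same group but often of another animal, and 3 arrays matched best a column of another group. Most of the treated and control male arrays compared here matched best another animal of their own group. Animal numbers above are those of the labels, so their groups hold but the animal behind a value is uncertain. It was used as an alternative through the 45 columns matched within a group.

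Spots of 62976 per array were reduced to 30367 probes. Background was corrected by normexp (offset 50), log2 ratios were fitted by loess within each array, and unflagged spots of a probe were averaged. The 17661 probes marked above background in the liver channel of 4 or more arrays in any group were tested with limma 3.58.1 in R 4.3.3 over 48 arrays, with group means and slide as a fixed block and Benjamini-Hochberg adjustment. Calls needed an adjusted p of at most 0.05 and a fold of at least 1.5. The array of 1 male at 0.03 mg/kg, with 5.06% of spots above background, was left out. Scripts were tested on simulated data. Symbols came from RefSeq tables (GRCr8), and 59.3% of probes were named.

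The named genes were the called genes with the 15 largest rises and, of at most 15, the 14 falls, with the first 3 measured members of each list and up to 6 at an unadjusted p under 0.05, and up to 5 genes in each direction for the sex difference and for 2 against 0.12 mg/kg. Of the 29 genes called and so named, 1 is counted but not reported here. Members and lists were chosen with earlier results of these data known. Animals were separate, and the number of arrays limits the precision. The alternatives tried were the slide term, the samples, the background correction, the scaling, the filter, the authors' values and leaving out each array.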

Additional observations from a re-analysis of the deposited data

Results flagged for a closer look

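Within-group spread was examined for the 29 named genes in both male groups, 58 groups of 5 arrays, where chance alone flags about 1 group in 20. In 1 of them an array stood apart: for Dnajb9 the 0.12 mg/kg male 52 had a log2 ratio of 1.66, and the other 4 treated males lay between 2.34 and 2.53. The gap was 0.778 of the group's range, above the limit of 0.71. That array lay on slide 5 and had 41.6% of its spots well above background. Its part in the value was not tested.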

How the results depend on the processing

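The count of 54 probes at 0.12 against 0 mg/kg in males fell to 8 with no slide block, to 15 on the 4 slides that held both groups, to 30 with the 10 arrays alone and slide as a random block, to 0 with the 10 arrays alone and no block, to 30 with the dim array included and to 34 with median centring. It ran from 23 to 78 when 1 array was left out. The cause was not tested. It was 40 to 66 under the other 6 settings, and in every setting the 54 probes kept their sign. The 54 were chosen on these same arrays, so their sign is a description only. Between 2 and 0.12 mg/kg the 666 calls became 338 with no slide block and 1240 by the scanner software's ratios, and ran from 370 (without male 87 at 2 mg/kg) to 1020 (without male 86 at 2 mg/kg). The difference between the sexes stayed at 0 calls throughout. Of the 29 named genes, 7 stayed called with no slide block, 9 on the 4 slides, 15 with the random block, 0 with the 10 arrays alone and no block, 17 with the dim array and 20 to 29 under the other settings, and none turned direction. By animal number, no paired analysis was possible because treated and control males share no number; the slides that held both groups gave the only pairing, through the slide block and the 15 calls above. On the 10 arrays 41.6% to 69.6% of spots were well above background, which limits dim probes.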

Other observations

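Called probes with no gene name gave further values, chosen after their values were seen. The largest, A_44_P191309, rose by 2.07 ± 0.43 on the log2 scale in males at 0.12 mg/kg and A_44_P178448 fell by 0.98 (limma adjusted p = 0.015 and 0.012). Just outside the calls lay Icam1, an adhesion molecule of inflamed vessels, with a log2 change of -0.49 ± 0.09, an adjusted p of 0.0018 and a fold of 1.41, and Zfp189 with 0.97 ± 0.25 and an adjusted p of 0.055, both by limma.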
